A study of Homo sapiens with 19 samples.

Results

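Aldo-keto reductases are enzymes that use NADPH to reduce aldehydes and ketones, among them lipid peroxidation products, sugars, retinaldehyde, steroids and prostaglandins, to the matching alcohols. The human enzymes form subfamilies of close relatives whose genes often lie side by side, and several are known targets of NRF2, the transcription factor that answers oxidative and electrophilic stress. AKR1B10 is best known from the epithelium of the small intestine and colon, while AKR1D1 belongs to the liver, where it takes part in bile acid synthesis. The 10 family members described here, AKR1B10, AKR1B15, AKR1B1, AKR1C1, AKR1C2, AKR1C3, AKR1A1, AKR7A2, AKR1D1 and AKR1E2, were chosen with their time courses on these same arrays in view, so their values are given as a description and without a test. Of the 10 genes, 9 had a probe whose RefSeq accession named them, among 20499 genes with a probe on the array. AKR1C2 was the member without a matched probe. The 9 genes were read by 11 probes, since AKR1B10 and AKR1C1 had a pair each, and 8 of them, like 16692 genes in all, were well above background on enough arrays (at least 5) for a slope to be fitted. Well above background is the flag that the scanner software sets for a spot clearly brighter than its surroundings.

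KhES-3 is an established line of human embryonic stem cells, which was moved from culture with basic FGF into a serum-free medium made to drive them to brown adipocytes. This medium held insulin, transferrin and selenium, a lipid mixture, ascorbic acid phosphate and the cytokines IGF-II, BMP4, VEGFA, KITLG, FLT3LG and IL-6, and every sample received it. RNA was taken once at each of 19 times after induction, from 3 to 72 h, labelled with Cy3 and hybridised to 19 one-colour arrays. The sample labels describe growth on irradiated mouse embryonic fibroblasts and the study's methods a feeder-free culture, and the sources used here do not settle which applied. Untreated cells and a sample from 0 h were not analysed here, and with 1 cell line and 1 array per time there is no replicate error, so the scatter of neighbouring times stands in for it.

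The 19 arrays were spread over 3 slides, of which the first held 6, from 3, 4 and 6 h and then 8, 10 and 12 h. The second held 8, from 14, 16 and 20 h, from 24, 28 and 32 h and from 36 and 42 h, and the third held 5, from 48, 54, 60, 66 and 72 h. A step between slides is therefore also a step in time. Signals below are intensities brought to a common 75th percentile of 871 on every array. Before that scaling the 75th percentile ranged from 654 at 72 h and 655 at 66 h to 1001 at 24 h, and the share of probes well above background ranged from 49.6% at 14 h to 64.7% at 54 h. All 6 pluripotency markers with a probe, POU5F1, NANOG, SOX2, LIN28A, DPPA4 and DNMT3B, were well above background on all 19 arrays, with a summed signal of 630302 to 636306 on the arrays from 3 to 6 h and 469604 to 494083 on those from 60 to 72 h. The library at every time thus carried the markers of the labelled cell type. Most of the summed signal came from POU5F1 (250574 to 381747 over the 19 arrays) and DNMT3B (93855 to 184056). A lower signal from fewer cells of a type and one from less RNA per cell cannot be told apart in such bulk samples. Changes in level compare the average log2 signal of the 3 last arrays (60, 66 and 72 h) with that of the 3 first (3, 4 and 6 h), as the late minus early change. For the pluripotency markers it was −0.84 for DNMT3B, −0.32 for POU5F1 and −0.29 for LIN28A. It was −0.07 for DPPA4, −0.02 for SOX2 and 0.29 for NANOG, so the lower late sum did not hold for every marker. Where the text gives a gene of a list a signal before and a signal after, these are the geometric means of those first and last arrays.

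AKR1B10 changed most among the members. It reduces retinaldehyde and reactive lipid aldehydes. The first of its probes (A_23_P93641) was not well above background at 3 h, with a signal of 9.76, and the next arrays of the first slide (4, 6, 8, 10 and 12 h) read 31.5, 53.5, 52.0, 78.7 and 96.0. On the second slide it read 113, 153 and 158 up to 20 h, then 99.7, 197 and 144 up to 32 h, and finally 165 at 36 h and 408 at 42 h. On the third, the values in order of time were 390, 525, 990, 2223 and 903. The course thus had an early climb within 12 h, a plateau from 16 to 36 h and a later climb that peaked at 66 h and was lower again at 72 h. Each of the 3 late values lay above every value before 60 h.

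The second AKR1B10 probe (A_24_P129341) was well above background on all 19 arrays and ran almost in parallel. It went from 27.7 at 3 h through a median of 126 to 1894 at 66 h, and its value at 72 h was 816. The 2 probes correlated with Pearson's r = 0.982 over the 19 arrays, and with r = 0.938 after the mean of each slide was removed. Since the first probe was not well above background at 3 h, the second gives the firmer size of the change. The late minus early change was 4.96 on the log2 scale, or 31.1-fold, by the second probe and 5.63 by the first, for which 2 of the 3 early arrays were well above background. Leaving out each of the 6 arrays of these windows in turn gave 4.59 to 5.25 by the second probe and 4.94 to 6.16 by the first.

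AKR1B10 increased within each slide. The slope of log2 signal on hours for the second probe was 0.0704 per h (SE 0.0055, 19 arrays) over the whole course, and it was 0.204, 0.0373 and 0.0732 per h within the slides in order of time. With a separate level for each slide the slope was 0.0582 per h. The steps at the slide borders were 0.15 from 12 to 14 h and 0.12 from 42 to 48 h, where slide and time cannot be told apart. Besides the 75th percentile, the arrays were scaled to their median, to the spike-in RNA added in fixed amounts, and by quantile normalization after another background correction (normexp). The 66 h peak was found under all 4 scalings, although its height differed. It stood 1.02 (log2) above 60 h by the second probe as scaled here, 0.91 when scaled to the array median and 0.30 when scaled to the spike-in RNA. At the 75th percentile scaling, 8.74% of all fitted genes were highest at 66 h and 11.7% at 72 h.

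AKR1B15 is the closest relative of AKR1B10 and its neighbour on chromosome 7, where RefSeq places AKR1B1, AKR1B10 and AKR1B15 next to each other. Its probe was well above background on 16 arrays, and not at 3, 8 and 14 h. The signal went from 17.98 at 3 h and 37.4 at 4 h through a median of 66.1 to 998 at 66 h, and was 428 at 72 h. The shape repeated that of AKR1B10, with low values of 38.0 at 24 h and 40.7 at 32 h inside the plateau and a climb from 163 at 42 h. The late minus early change was 4.43, with 2 of the 3 early arrays well above background. The slope was 0.0647 per h (SE 0.0063, 19 arrays), and 0.147, 0.0267 and 0.0715 per h within the 3 slides. AKR1B15 correlated with the 2 AKR1B10 probes at r = 0.954 and r = 0.977 over 19 arrays, and at 0.886 and 0.910 with slide means removed. These transcripts are near copies of each other, and how far the probes read both was not tested.

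**Figure D1:**
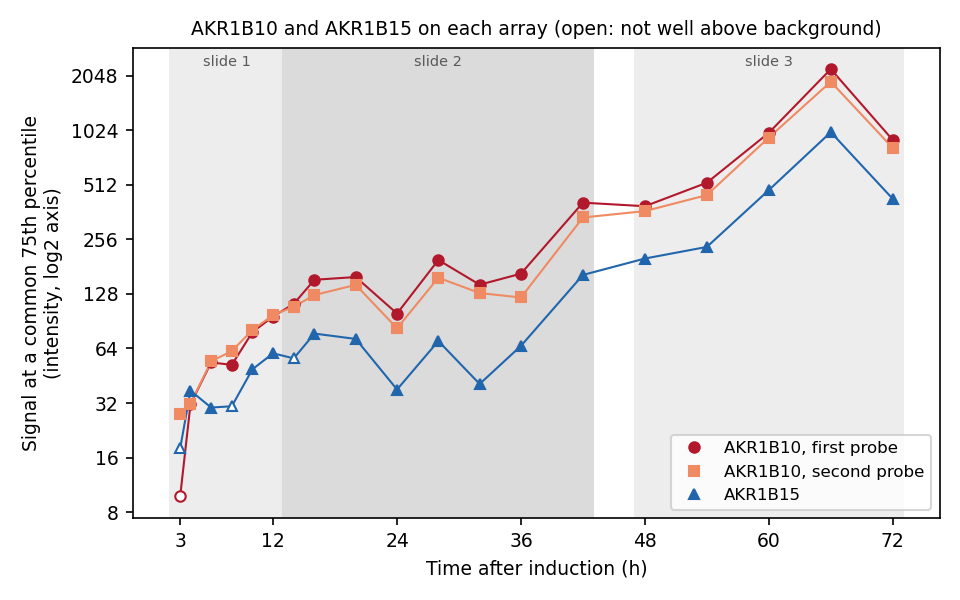
Signal of both AKR1B10 probes and of AKR1B15 on each of the 19 arrays against hours after induction, on a log2 axis, with the slides shaded and open symbols where the probe was not well above background. All 3 curves peak at 66 h, where they read 2223, 1894 and 998, and heights of different probes are not comparable.

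AKR1B1, the remaining gene of the chromosome 7 group, went the other way. It is aldose reductase, which turns glucose into sorbitol in the polyol pathway. Its signal was 11971 at 3 h and highest at 6 h with 12828, had a median of 9465 and was lowest at 72 h with 7705. Averages by window were 12283 for 3 to 6 h, 11105 for 8 to 12 h, 9879 for 14 to 20 h, 9599 for 24 to 28 h, 9064 for 32 to 42 h, 9341 for 48 to 54 h and 8481 for 60 to 72 h. Each of the 3 late values was below every value from 3 to 12 h. The late minus early change was −0.53, and it was −0.91 with the array median, −1.18 with the spike-in RNA and −0.24 after normexp and quantile normalization. The slope was negative within each slide, at −0.0184, −0.0050 and −0.0104 per h. AKR1B1 correlated with the first AKR1B10 probe at r = −0.806, and at −0.329 once slide means were removed.

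The AKR1C genes sit together on chromosome 10 in the order AKR1C1, AKR1C2, AKR1C3, AKR1C8 and AKR1C4, with AKR1E2 before them. AKR1C1, AKR1C2 and AKR1C3 encode hydroxysteroid dehydrogenases that act on progesterone, androgens and prostaglandins. Their promoters are shown because those of AKR1C1 and AKR1C2 are nearly the same, with that of AKR1C3 set beside them. The windows are from RefSeq (GRCh38.p14) and hold 250 bases before and 50 after the annotated start, 5′ to 3′ on the strand of the gene. They are chr10:4963165-4963464 on the plus strand for AKR1C1, chr10:5003808-5004107 on the minus strand for AKR1C2 and chr10:5048531-5048830 on the plus strand for the first of the AKR1C3 windows. Capitals mark the CCAAT box, read here on the opposite strand.
AKR1C1: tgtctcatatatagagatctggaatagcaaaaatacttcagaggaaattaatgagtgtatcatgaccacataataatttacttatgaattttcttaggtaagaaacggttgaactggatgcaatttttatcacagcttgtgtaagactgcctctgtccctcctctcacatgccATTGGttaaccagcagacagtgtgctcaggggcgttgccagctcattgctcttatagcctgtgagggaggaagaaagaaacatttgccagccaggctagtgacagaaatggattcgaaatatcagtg
AKR1C2: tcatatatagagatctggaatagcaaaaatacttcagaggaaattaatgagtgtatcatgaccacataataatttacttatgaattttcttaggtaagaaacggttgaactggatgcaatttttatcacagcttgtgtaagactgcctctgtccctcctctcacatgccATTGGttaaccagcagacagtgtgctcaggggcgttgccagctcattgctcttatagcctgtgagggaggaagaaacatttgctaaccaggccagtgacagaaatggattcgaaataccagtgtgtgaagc
AKR1C3: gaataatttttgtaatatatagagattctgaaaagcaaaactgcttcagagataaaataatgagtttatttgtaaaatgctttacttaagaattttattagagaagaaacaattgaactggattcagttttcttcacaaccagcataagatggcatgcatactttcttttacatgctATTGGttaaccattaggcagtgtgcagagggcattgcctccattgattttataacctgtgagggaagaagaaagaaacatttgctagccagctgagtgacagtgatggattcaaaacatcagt

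The AKR1C1 and AKR1C2 windows were identical at 288 of 292 aligned bases (98.6%), and those of AKR1C1 and AKR1C3 at 227 of 291 (78.0%). Each of the 3 had 1 match to CCAAT, searched on both strands, at positions -77, -81 and -73 from the start, and 34.6% of 35116 RefSeq promoter windows of this length had at least 1. The antioxidant response element core, TGACNNNGC, the AP-1 site, TGANTCA, and the TATA box, TATAAA, were also searched on both strands. The first of these motifs can overlap the AP-1 site. No AKR1C window held the response element core, found in 13.3% of all windows, or the AP-1 site, found in 7.71%, and the AKR1C3 window printed above held a TATAAA match at -26, as did 11.5% of all windows. These matches describe letters only. Of the 10 members, 8 had a window in the table used, and AKR1B10 and AKR1B15 did not.

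AKR1C3, which reduces androgen precursors and makes prostaglandin F and was well above background on all arrays, went from 312 at 3 h to 732 at 16 h, back to 472 at 32 h, and to 1124 at 66 h and 788 at 72 h, with a median of 548. Both the 16 h and the 66 h value stood above all earlier arrays, and the 3 h value was the lowest. The late minus early change was 1.05, or 2.07-fold, and it was 0.67 after median scaling and 0.40 after spike-in scaling. The 66 h maximum moved to 16 h with the spike-in RNA. Within the slides the slopes were 0.0902, −0.0140 and 0.0360 per h, so its course was not a steady one.

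AKR1C1, which inactivates progesterone, was read by a pair of probes that disagreed on its main feature. The first (A_23_P257971) went from 104 at 3 h to 138 at 12 h and, by way of 171 and 191, to 371 at 20 h. It then read 209 at 24 h and 131 at 36 h, and later 256 at 66 h and 184 at 72 h. The second (A_24_P152968) read 83.1, 83.8 and 103 on the arrays of 16, 20 and 24 h, had a median of 80.2 and was highest at 66 h with 142. The 20 h maximum of the first probe was thus not seen by the second, while both read more at 66 h than at 60 and 72 h. The step from 60 to 66 h was 0.78 and 0.77 (log2), but 0.06 and 0.04 with the spike-in RNA. With that scaling the second probe was highest at 28 h. The late minus early changes of the 2 probes were close, at 0.66 and 0.63. Both came to about no change with the spike-in RNA, at 0.02 and −0.02. With a level for each slide, the slope of the first probe turned from 0.0060 to −0.0088 per h, and that of the second went from 0.0075 to 0.0017 per h. The first probe stands for the gene in the counts of called members, where it was not called, while the second was called rising. The probes correlated with each other at r = 0.684 over 19 arrays and with AKR1C3 at 0.749 and 0.810. Given the likeness of AKR1C1 to AKR1C2, which transcripts these probes read was not tested.

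**Figure D2:**
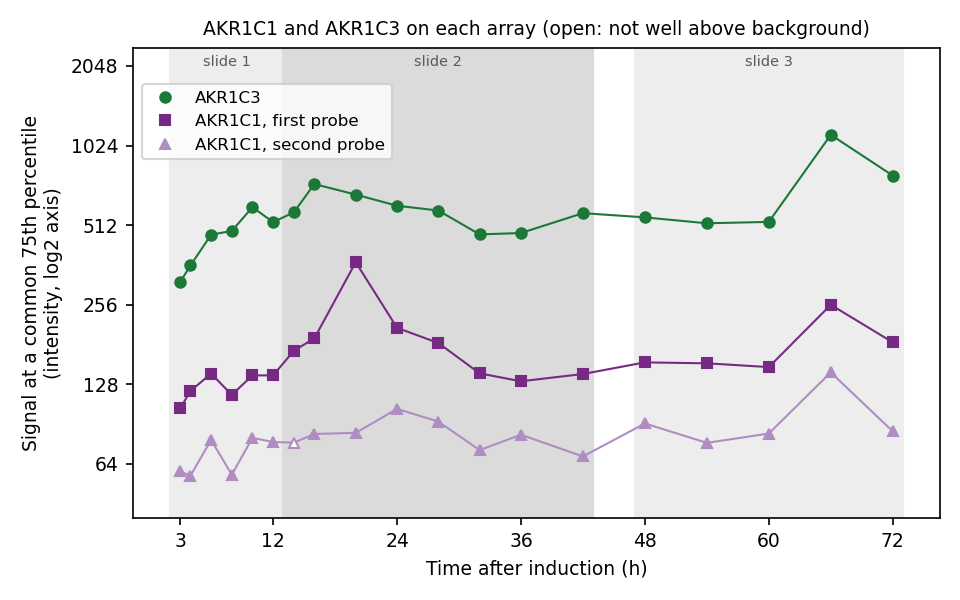
Signal of AKR1C3 and of both AKR1C1 probes on each of the 19 arrays against hours after induction, on a log2 axis, with slides shaded and open symbols where not well above background. The first AKR1C1 probe peaks at 20 h with 371, where the second reads 83.8, and AKR1C3 reads 1124 at 66 h.

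AKR1A1 and AKR7A2 are broadly expressed aldehyde reductases, and AKR7A2 also reduces succinic semialdehyde. AKR1A1 read 5054 at 3 h, was lowest at 14 h with 3657, had a median of 4918 and was highest at 72 h with 8238. All 5 values from 48 h on, 6179 to 8238, were above all earlier ones, which reached 5404. The late minus early change was 0.52, or 1.43-fold, and it was 0.14 with the array median, −0.13 with the spike-in RNA and 0.76 after normexp and quantile normalization, so its direction depended on the scaling. The slope was −0.0181 per h on the first slide and 0.0129 and 0.0161 per h on the later slides. AKR1A1 changed by −0.34 from 12 to 14 h and by 0.32 from 42 to 48 h, both of which are borders between slides, and slide and time cannot be told apart at these steps.

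AKR7A2 read 5606 at 3 h, 4329 at 54 h, its lowest value, and 6960 at 72 h, its highest, with a median of 5017. The change from early to late was 0.12, and it was −0.26 after median scaling and −0.53 after spike-in scaling. On the third slide the signal went from 5017 at 60 h to 6681 at 66 h and 6960 at 72 h, although with the spike-in RNA the step from 60 to 66 h was −0.31 in place of 0.41. Its promoter is shown as the window among those of the members that held the response element core, with capitals marking its 3 matches (either strand) inside chr1:19312095-19312394, minus strand, of the same build.
AKR7A2: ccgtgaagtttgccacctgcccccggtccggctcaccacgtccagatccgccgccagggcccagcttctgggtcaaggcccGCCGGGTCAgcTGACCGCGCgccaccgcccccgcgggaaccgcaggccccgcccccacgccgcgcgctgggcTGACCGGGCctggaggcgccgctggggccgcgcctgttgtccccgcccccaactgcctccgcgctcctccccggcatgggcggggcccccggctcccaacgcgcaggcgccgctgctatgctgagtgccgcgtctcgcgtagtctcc

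**Figure D3:**
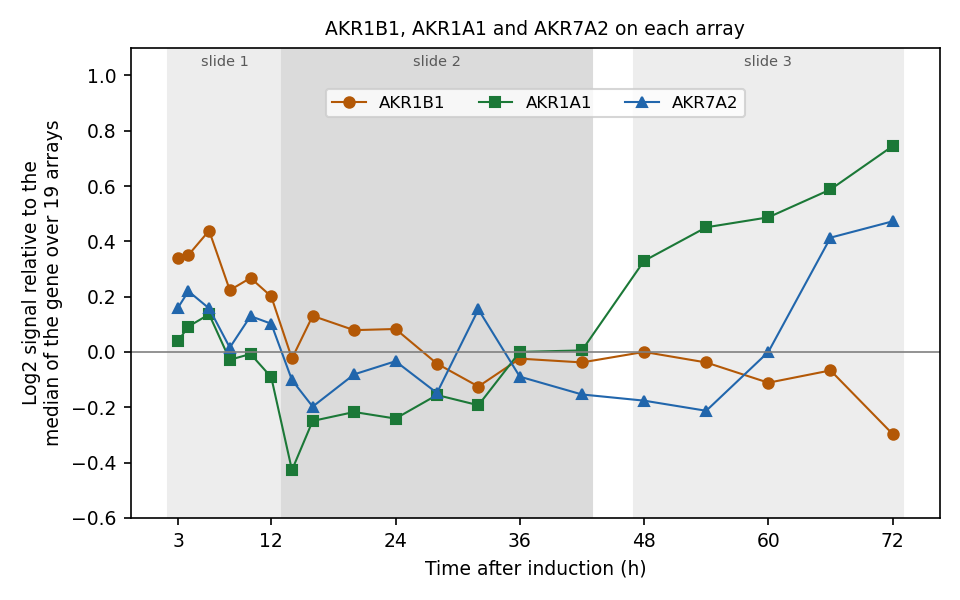
Log2 signal of AKR1B1, AKR1A1 and AKR7A2 on each of the 19 arrays, relative to the median of each gene over all arrays, against hours after induction, with slides shaded. AKR1B1 ends at its lowest value and AKR1A1 and AKR7A2 at their highest, while AKR1A1 is lowest at 14 h.

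The remaining pair of members was near or below background. AKR1D1 was well above background on 0 of 19 arrays, with signals of 4.22 to 15.03. AKR1E2, which reduces a sugar called anhydrofructose, was well above background on 8 arrays and read at most 35.0 apart from a value of 172 at 6 h. Its late minus early change of −0.88 rested on that array, since without it the change was 0.01. At 6 h, 103 of 32113 fitted probes stood at least 2 log2 units above both neighbouring times, and over the arrays this number ranged from 1 to 252.

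**Figure D4:**
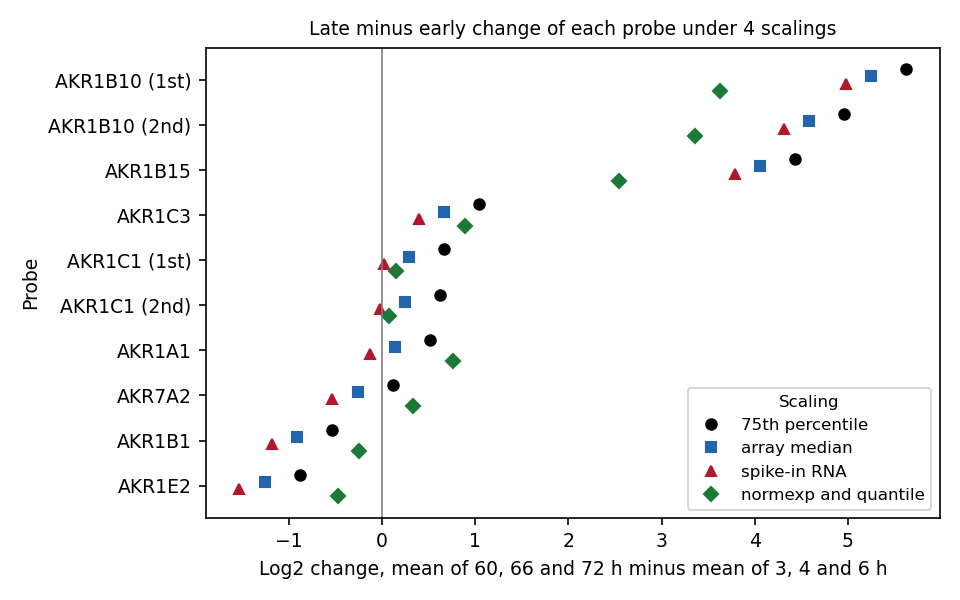
Late minus early log2 change (mean of 60, 66 and 72 h minus mean of 3, 4 and 6 h) of each member probe with levels, under 4 ways of scaling the arrays. The AKR1B10 and AKR1B15 probes stay above 2.5 under each scaling, while AKR1A1 and AKR7A2 have changes on both sides of 0.

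Slopes were called rising or falling by limma, a linear model fitted to every probe, where the p adjusted over all fitted probes was under 0.05. By this rule 4 of the 8 fitted members had a rising slope, where 24.4% of all fitted genes did, and 1 had a falling slope, where 29.9% did. The members that rose were AKR1B10, AKR1B15, AKR1C3 and AKR1A1, and the member that fell was AKR1B1. Nothing is read from these counts, because the members were picked on the same values. With a level for each slide, 1 member, AKR1A1, had a rising slope and 0 a falling one, where 4.37% and 4.98% of all genes did. The slopes themselves were then 0.0683 per h for AKR1B10, 0.0480 for AKR1B15, 0.0082 for AKR1C3 and −0.0075 for AKR1B1. With the array median 2 rose and 1 fell, against 10.5% and 43.9% of genes, and with the spike-in RNA 2 rose and 2 fell, against 3.59% and 44.5%. Those scalings moved the median change of all fitted genes from −0.05 to −0.42 and −0.70. The counts of the lists below stand beside the same shares of all fitted genes under these settings.

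Of 7 other genes of the superfamily, 4 rose and 1 fell by limma, where 24.4% and 29.9% of all fitted genes did. The median slope of the list was 0.0069 per h, and that of all fitted genes was −0.0002. AKR1C4, a liver enzyme of the same cluster, was well above background on 0 of the 3 early and 2 of the 3 late arrays, so its change is a bound. It was at least 2.65-fold higher late (adjusted p = 0.0359 by limma, and 0.998 with a level for each slide). The early level was the higher of the gene's own signal and the lowest signal among probes well above background on that array. AKR7A3 and AKR7L, the relatives of AKR7A2, were well above background throughout and went from 1688 to 2260 and from 2547 to 3184. AKR1C8 had a slope of 0.0069 per h. The gene that fell was KCNAB1, a potassium channel subunit with the same fold as the reductases (slope −0.0232 per h, adjusted p = 8.62e-05 by limma, and 0.373 with a level for each slide). It was well above background on 0 of the 3 late arrays, and by the same bound it was at least 1.05-fold higher early, with measured means of 34.1 early and 15.02 late. With median scaling, with spike-in scaling and with a level for each slide 0 of the 7 rose. Of all fitted genes 10.5%, 3.59% and 4.37% rose under these settings. After normexp and quantile normalization 2 of the 7 rose. With spike-in scaling the slopes of AKR7A3, AKR7L and AKR1C8 were −0.0014, −0.0036 and −0.0015 per h.

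Short-chain dehydrogenases are the other large group of carbonyl reductases and share substrates with the aldo-keto reductases. Of 23 measured genes 3 rose and 12 fell, where 24.4% and 29.9% of all fitted genes did. The median slope of the list was −0.0045 per h. The steepest falls were those of DHRS2 (slope −0.0179 per h), CBR3 (1567 to 722) and DHRS11 (1972 to 1081, adjusted p = 1.13e-05 by limma), and DHRS11 and RDH11, which reduces retinaldehyde, were the 2 that were also called with a level for each slide. RDH16, a retinol dehydrogenase, rose from 54.4 to 151 (adjusted p = 2.25e-05 by limma), and DHRS12 and DHRSX rose with slopes of 0.0057 and 0.0044 per h, which turned to −0.0028 and −0.0040 with spike-in scaling. CBR1, the main carbonyl reductase of the cytosol, went from 7916 to 8607 (adjusted p = 0.286 by limma). Median and spike-in scaling each gave 1 rising and 14 falling genes. Of all fitted genes, 10.5% and 3.59% rose and 43.9% and 44.5% fell under these scalings. With a level for each slide 0 of the 23 rose and 2 fell, where 4.37% and 4.98% of all fitted genes did.

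Aldehyde dehydrogenases oxidise the aldehydes that the reductases reduce. Of 16 fitted genes 4 rose and 4 fell, 25.0% each and near the shares of all fitted genes, with a median slope of 0.0027 per h. ALDH1A1, which makes retinoic acid, rose from 95.1 to 167 (adjusted p = 0.0020 by limma, and 0.813 with a level for each slide). Its slope with a level for each slide was −0.0034 per h. ALDH1L1 and ALDH2 rose with slopes of 0.0084 and 0.0059 per h. With spike-in scaling that of ALDH2 was −0.0026 and that of ALDH1L1 −4.4e-05 per h. ALDH3A2, which handles fatty aldehydes, fell from 5755 to 3500, ALDH18A1 from 3270 to 2152 and ALDH9A1 from 2630 to 2007. With a level for each slide 1 gene rose, ALDH1L1, and 0 fell, where 4.37% and 4.98% of all fitted genes did. Median scaling gave 1 rising and 6 falling genes, where 10.5% of all fitted genes rose and 43.9% fell. Spike-in scaling gave 0 and 6, where 3.59% and 44.5% did.

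Among 33 genes of steroid metabolism, 19 were fitted, of which 7 rose and 6 fell. Of all fitted genes 24.4% rose and 29.9% fell. The median slope of the list was 0.0026 per h. With median or with spike-in scaling 3 rose and 8 fell, where 10.5% and 3.59% of all fitted genes rose and 43.9% and 44.5% fell. HSD17B14 rose from 411 to 1367 (slope 0.0299 per h, adjusted p = 1.14e-09 by limma), CYP27A1, which hydroxylates cholesterol, from 1527 to 3367, and CYP11A1, which makes pregnenolone, from 157 to 328. These 3 genes rose under median and spike-in scaling and with a level for each slide as well. With a level for each slide HSD3B7, an enzyme of bile acid synthesis, was the other gene that rose, and HSD17B7 and HSD17B10 fell. These 4 rising and 2 falling genes stood beside 4.37% and 4.98% of all fitted genes. STAR, which carries cholesterol into mitochondria, fell from 1153 to 602, HSD17B7 from 827 to 534 and HSD17B10 from 17278 to 11388. SRD5A1, the steroid reductase that works upstream of the AKR1C enzymes, fell from 2643 to 1995 (adjusted p = 0.0303 by limma, and 0.588 with a level for each slide).

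The NRF2 list held 29 fitted genes, several of which encode partners of the reductases in detoxification or supply their NADPH. Of the 29 genes 5 rose and 14 fell, where 24.4% and 29.9% of all fitted genes did. The median slope of the list was −0.0039 per h. Median scaling gave 1 rising and 17 falling genes, where 10.5% of all fitted genes rose and 43.9% fell. Spike-in scaling gave 1 and 19, where 3.59% and 44.5% did. NQO1, a quinone reductase and the usual reporter of NRF2 activity, fell from 130 to 53.9 (slope −0.0300 per h, adjusted p = 0.0126 by limma), SRXN1 from 3500 to 1302 and UGDH from 3462 to 1684. KEAP1, which holds NRF2 back, fell from 4805 to 3098. The genes that rose most steeply were ABCC3, an exporter (23.5 to 66.3), OSGIN1 (54.1 to 91.9) and GCLM (19305 to 33283). Of these, ABCC3 was the one still called under median and under spike-in scaling. ABCC3 was well above background on 8 arrays only, 1 of the 3 early and 2 of the 3 late ones among them. The probe of NFE2L2, the gene of NRF2 itself, was well above background on 3 arrays and was not fitted. With a level for each slide 0 genes rose and 2 fell, NQO1 and GCLC, where 4.37% and 4.98% of all fitted genes did.

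Of 8 fitted genes of the sorbitol pathway and osmotic response, 3 rose and 2 fell, where 24.4% and 29.9% of all fitted genes did. The median slope of the list was 0.0033 per h. SORD, which oxidises the sorbitol that AKR1B1 makes, fell from 1783 to 882 (slope −0.0164 per h, adjusted p = 2.60e-05 by limma), and KHK, fructokinase, from 66.7 to 33.5. HSPA4L rose from 128 to 272, NFAT5, the regulator of the osmotic response, from 3639 to 5828 and AQP1 from 73.5 to 115. Median scaling gave 2 rising and 3 falling genes, where 10.5% of all fitted genes rose and 43.9% fell. Spike-in scaling gave 0 and 2, where 3.59% and 44.5% did. A level for each slide gave 0 and 0, where 4.37% and 4.98% did.

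**Figure D5:**
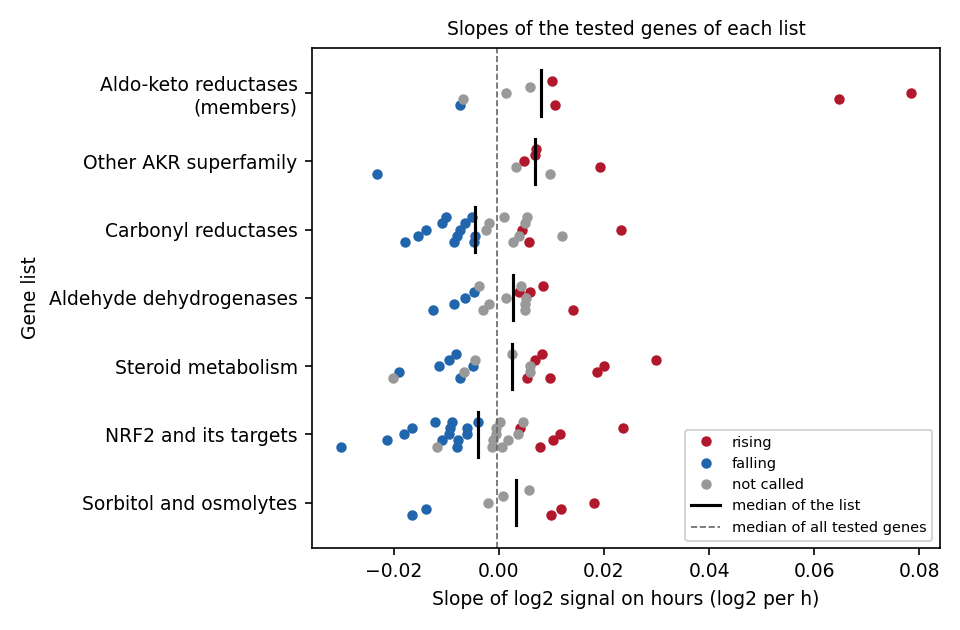
Slope of log2 signal on hours (log2 per h) of each fitted gene by list, coloured by the limma call, with the median of the list as a bar and that of all fitted genes as a dashed line. AKR1B10 and AKR1B15 lie at 0.0784 and 0.0647 per h, apart from the other points, and the medians of the carbonyl reductases and the NRF2 list lie below 0.

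Likeness was measured over 15397 genes detected well above background in 15 arrays or more. Those whose course was most like the first AKR1B10 probe, which stands for the gene in the fit, were S100A14, C6orf52, AKR1B15, HLA-DQB2 and SUSD2, with Pearson's r of 0.957, 0.955, 0.954, 0.953 and 0.939 over 19 arrays. S100A14 went from 142 to 997, HLA-DQB2 from 208 to 723 and SUSD2 from 728 to 2297. With slide means removed, r was 0.838 for S100A14, 0.886 for AKR1B15 and 0.697 to 0.771 for the others, and AKR1B15 and S100A14 were the 2 of these that were among the nearest 5. With Spearman's rho the 2 were HLA-DQB2 and C6orf52 instead. The genes nearest to the first AKR1C1 probe were ADAM12 (r = 0.833), FNDC9 (0.808), LONP2 (0.789), KRT4 (0.779) and MAFA (0.777), and each of them was highest at 20 h. With Spearman's rho or with slide means removed, 0 of these 5 were among the nearest 5. All these genes share the same arrays and slides with the members.

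Markers of other cells in which these reductases are known were looked at beside the late climb of AKR1B10 and AKR1B15. Of 8 intestinal epithelial markers 5 were well above background on at least 5 arrays and FABP2 and CDH17 on 0, and their summed signal was 903 to 960 from 3 to 6 h and 681 to 1107 from 60 to 72 h. Single intestinal markers went apart, with late minus early changes of 0.82 for MUC2, 0.89 for LGALS4, −0.88 for VIL1 and −1.43 for CDX2. By limma 2 of the 5 fitted intestinal markers rose and 2 fell, where 24.4% and 29.9% of all fitted genes did. FABP1 was well above background on 0 of the 3 early and 2 of the 3 late arrays. Of 9 hepatic markers 7 were well above background on at least 5 arrays and HNF4A on 0, and their summed signal was 2066 to 2603 early and 3328 to 7919 late. TTR, APOA1 and APOA2 changed by 4.58, 2.58 and 2.55 (log2), SERPINA1 by 0.64 and AFP by −2.86. ALB was well above background on 5 arrays, but on 0 of the 3 early and 0 of the 3 late ones. FGB was well above background on 1 array, and TF on 10, of which 1 was late. Of 9 fibroblast markers 5 were well above background on at least 5 arrays and FAP on 0, with sums of 39447 to 42515 early and 29916 to 47297 late. Most of these sums came from THY1 (12280 to 33146 over the 19 arrays), COL1A1 (6596 to 9948) and COL1A2 (4426 to 6349). COL3A1 and LUM were well above background on 1 array each, POSTN on 2, and DCN on 0 of the 3 late arrays. By limma 3 of the 7 fitted hepatic markers rose and 1 fell, where 24.4% and 29.9% of all fitted genes did. Of the 5 fitted fibroblast markers 1 rose and 1 fell, beside the same shares. The part of these cell types in the AKR1B10 and AKR1B15 signals was not tested.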

How the data were processed

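RNA of KhES-3 cells at 19 times was measured on 1 one-colour Agilent array each. The authors deposited, per the file headers, the output of Agilent Feature Extraction 10.10.1.1 with a background-subtracted intensity per spot, the raw median intensity of spot and background, and other flags of 0 or 1 for spots well above background, saturated or outlying. A value table of intensities that the authors deposited was found to be the processed intensity times a factor per array (0.905 to 1.38), blank where not well above background.

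Flagged spots (232 to 814 per array) were left out, 0 spots were saturated, spots of a probe were averaged, and log2 intensity was scaled by the 75th percentile of the array. Of 50683 probes, 28170 were named for 20499 genes by RefSeq accession (GRCh38.p14), and a gene was represented by its probe with the highest mean. Window signals are geometric means. Slopes on hours were fitted with limma 3.58.1 (R 4.3.3), with moderated statistics and Benjamini-Hochberg adjustment (threshold 0.05) over the 32113 probes that 5 arrays or more showed well above background. Tables and plots were made in Python 3.11.15 (numpy 2.4.6, pandas 2.3.3, matplotlib 3.10.9). On simulated data over 32113 probes, of which 200 were given a slope, the fit made 8 false calls. It recovered 60 of 100 slopes of 1 log2 unit over 66 h and 94 of 100 of 2 units. The simulated noise was normal and independent between arrays, with no slide levels. These counts therefore do not give the share of false calls on the real arrays, where slide and time go together. The p-values measure scatter about a line over time, not replicate error, and their precision is limited by how few arrays there are.

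The members and lists (other superfamily genes, carbonyl reductases, aldehyde dehydrogenases, steroid metabolism, NRF2 and targets, sorbitol and osmolytes, markers) were chosen with earlier results of these data known. Named genes are the members, up to 3 called genes per list with the steepest slopes each way, NFE2L2, KEAP1, NQO1, SORD, CBR1 and SRD5A1, the 5 genes most like AKR1B10 and AKR1C1, and the markers. RDH11, GCLC and HSD3B7 are named beside counts of 5 or fewer genes called with a level for each slide, after their values were seen. Alternatives were scaling by the array median or by 7 of 10 spike-in levels, normexp (offset 50) with quantile normalization, the deposited table, other filters on dim probes, log2 hours, a level for each slide, 3 to 54 h only, the mean of probes and each array left out.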

Additional observations from a re-analysis of the deposited data

How the results depend on the processing

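No paired analysis was possible because no time has more than 1 array. The AKR1B10 and AKR1B15 changes kept their direction in all alternatives run. Sizes were 3.63, 3.35 and 2.54 for the AKR1B10 probes and AKR1B15 after normexp and quantile normalization, and 6.53 for the first AKR1B10 probe at 72 h minus 3 h. With the spike-in RNA the changes of the second AKR1C1 probe (−0.018), AKR1A1 (−0.13) and AKR7A2 (−0.53) turned, as did that of AKR7A2 with the array median (−0.26). AKR1E2 ranged from −1.39 to 0.012 with each early or late array left out and turned without 6 h, and with a level for each slide the slopes of the first AKR1C1 probe (−0.0088 per h) and AKR1E2 (0.0093 per h) turned. The causes were not tested. Counts of rising and falling genes that moved by over 1.5 times follow. With the array median, rising counts were 1 for carbonyl reductases, 1 for aldehyde dehydrogenases, 3 for steroid metabolism, 1 for the NRF2 list, 0 for other superfamily genes and 2 for the members. With the spike-in RNA, rising counts were 1, 0, 3, 1, 0 and 2 in the same order and 0 for sorbitol and osmolytes, and 2 members fell. With a level for each slide, rising and falling counts were 0 and 2 for carbonyl reductases, 1 and 0 for aldehyde dehydrogenases, 4 and 2 for steroid metabolism, 0 and 2 for the NRF2 list, 0 and 0 for sorbitol and osmolytes, 0 and 0 for other superfamily genes and 1 and 0 for the members. After normexp and quantile normalization 2 other superfamily genes rose and 0 members fell. With the deposited values, 2 aldehyde dehydrogenases, 3 genes of the NRF2 list and 2 other superfamily genes rose, and 1 gene of the sorbitol list and 0 other superfamily genes fell. Without a filter 3 genes of the NRF2 list rose and 1 of the sorbitol list fell. With probes well above background on all 19 arrays fewer genes were tested, and 2 of 5 members and 2 of 2 other superfamily genes rose, and 1 gene of the sorbitol list and 0 other superfamily genes fell. From 3 to 54 h, 5 carbonyl reductases fell, 1 other superfamily gene rose, and 2 members rose and 2 fell. Leaving out each array in turn gave 2 to 5 rising and 9 to 12 falling carbonyl reductases (5 rising without 3 or 4 h), 3 to 5 and 3 to 4 aldehyde dehydrogenases, 6 to 8 and 5 to 7 genes of steroid metabolism, 3 to 5 and 12 to 14 of the NRF2 list (3 rising without 3 or 6 h), 3 and 1 to 2 of the sorbitol list (1 falling without 3, 4, 48, 54, 60 or 72 h), 2 to 4 and 1 other superfamily genes (2 rising without 66 h), and 3 to 5 and 1 members. Over all results, 350 counts stayed within 1.5 times and 56 did not. Most of these counts came from runs with 1 array left out, which seldom moved, so the other alternatives moved a larger share. Dim signals limit the first AKR1B10 probe at 3 h and AKR1B15 at 3, 8 and 14 h.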
